A study of Mus musculus with 4 samples.

Results

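The 10 genes described here are known from eosinophils, basophils and mast cells, the granulocytes of allergy and parasite defence, and were followed in sorted mouse megakaryocytes labelled wild-type or knockout for the repressor gene Gfi1b. They were chosen by name, Prg2, Prg3, Epx, Ear1 and Siglecf for eosinophils and Hdc, Cpa3, Fcer1a, Ms4a2 and Il1rl1 for basophils and mast cells. The choice was made with earlier results of these data known. All 10 were found among the 41214 gene identifiers counted. RNA was sequenced from megakaryocytes, the marrow cells that shed platelets, of C57Bl/6 mice aged 8 weeks. The sort kept marrow cells of leg and arm bones that lacked lineage markers and carried cKit, CD41 and CD61. There were 4 groups of 1 library each: Gfi1b wild-type with PF4-Cre, Gfi1b knockout with PF4-Cre, Gfi1b wild-type with ROSA-Cre and Gfi1b knockout with ROSA-Cre. All 4 groups carry a Cre label, the wild-type ones included. Pf4 is a megakaryocyte gene, so PF4-Cre is a recombinase directed to that lineage. The labels do not describe the ROSA-Cre allele, the deleted exons or any pooling of mice.

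Eosinophils store 4 of these products in their granules: the major basic proteins (Prg2 and its paralogue Prg3), eosinophil peroxidase (Epx) and an eosinophil-associated ribonuclease (Ear1), while Siglecf encodes a sialic acid-binding receptor of their surface. Mast cells and basophils carry the high-affinity IgE receptor, whose alpha chain (Fcer1a) binds IgE and whose beta chain (Ms4a2) amplifies the signal, and they hold histamine made by histidine decarboxylase (Hdc). Carboxypeptidase A3 (Cpa3) is a mast cell granule protease that progenitor cells also transcribe, Il1rl1 encodes the interleukin-33 receptor, and cKit, which the sort required, is also the growth factor receptor of mast cells.

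Gene counts per library ran from 21835165 in the ROSA-Cre knockout to 61652843 in the PF4-Cre wild-type, a 2.82-fold range, with both ROSA-Cre libraries the shallower. A count of 0 allowed levels of up to 0.0487 to 0.137 CPM, counting error only. CPM are counts relative to the library size, and gene levels below use sizes scaled by TMM, which evens out differences in RNA composition. Gfi1b stood at 170 and then 1401 CPM in the PF4-Cre pair, and at 238 and then 2462 CPM in the ROSA-Cre pair, higher in the libraries labelled knockout, so the whole-gene count did not check the labels on which every direction below rests. Markers of the labelled cell type, 12 megakaryocyte genes, summed to 6514 to 9844 CPM with none at 0. They include Itga2b and Itgb3, genes of surface proteins that the sort required, so the sum is no independent check of the cell type. The p-values are from edgeR's quasi-likelihood test with terms for Cre model and genotype, adjusted over 15063 genes by the Benjamini-Hochberg method. Their spread is how far the genotype difference disagreed between the models, moderated across genes (n = 2 libraries per genotype), and nothing says that the libraries stand for separate cohorts of mice. Within a model there is no replicate check and no test: ratios have a 95% Clopper-Pearson interval that covers counting error only. In such bulk samples, fewer cells of a type and less RNA per cell cannot be told apart.

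The eosinophil genes Prg2 and Siglecf and the histamine gene Hdc were lower in the libraries labelled knockout, and the IgE receptor alpha chain was higher. Of the 10 genes, all of which passed the filter on low counts, 3 fell (Prg2, Siglecf and Hdc) and 1 rose (Fcer1a). Among all genes tested 8.72% were called lower and 11.6% higher, the shares to set beside each list count between genotypes below. The median log2 fold change of the 10 was -1.16, against -0.02 over all genes tested. It was -1.24 for the 5 eosinophil genes and 0.47 for the other 5. As the 10 were chosen with earlier results known, setting them beside all genes is a description, not an independent test. Without a Cre model term, 0 of the 10 passed edgeR's test in either direction. Of them, 2 had an unadjusted p under 0.05 in the lower direction and 0 in the higher one. DESeq2's Wald test with that term called 5 lower and 1 higher, and 3003 of 15063 genes in all. Prg2 was not among those 5 (adjusted p = 0.176), and edgeR with a robust prior did not call it either (adjusted p = 0.105).

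The Cre models differed as well. Of the 10 genes, 4 were higher in ROSA-Cre (Prg2, Prg3, Epx and Ear1), where 7.36% of all genes were, and 2 were lower (Hdc and Cpa3), where 9.67% were. With the genotype term left out, edgeR called 0 genes between the models, of 2050 with an unadjusted p under 0.05. Model, depth and library cannot be told apart. Within PF4-Cre, 6 of the 10 were at least 2-fold lower in knockout, against 3.84% of all genes, and 2 were at least 2-fold higher, against 11.3%. Within ROSA-Cre, 2 of the 10 were at least 2-fold lower, against 7.85% of all genes, and 0 were at least 2-fold higher, against 13.6%.

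**Figure D1:**
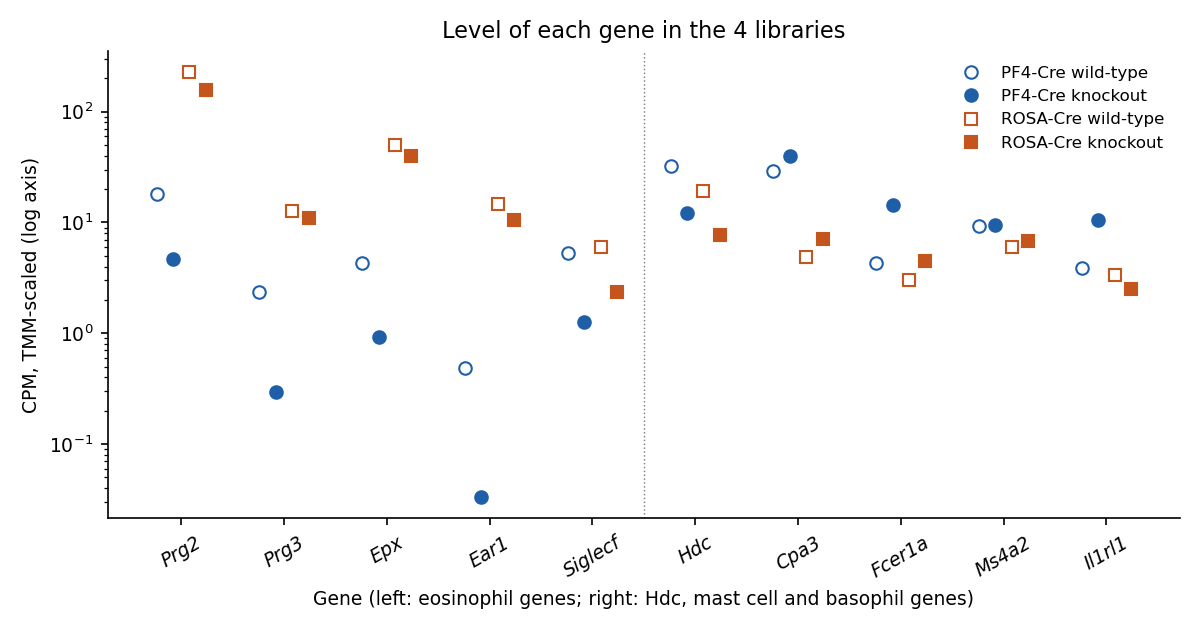
Level of the 10 genes in each library, in CPM on a log axis, 1 point per library with its Cre model and genotype given by the legend. Prg2, Prg3, Epx and Ear1 lie higher in both ROSA-Cre libraries than in both PF4-Cre libraries, and Cpa3 lies lower.

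Prg2, the major basic protein gene, differed by model and by genotype. The gene (ENSMUSG00000027073, chromosome 2 from 84980461 to 84983632, plus strand of GRCm38) had 1069 counts (17.9 CPM) and 283 counts (4.68 CPM) in PF4-Cre wild-type and knockout, and 5614 counts (228 CPM) and 3510 counts (157 CPM) in the ROSA-Cre pair. Both ROSA-Cre libraries lay above both PF4-Cre libraries, and in each model the knockout was the lower, so the genotypes overlapped unless taken within a model. The knockout was 3.82-fold lower in PF4-Cre (ratio 0.262, interval 0.229 to 0.298) and 1.46-fold lower in ROSA-Cre (0.687, interval 0.659 to 0.717). Over both models the log2 fold change of Prg2 was -1.19, a fall that passed (SE 0.30, adjusted p = 0.0327, edgeR). That call was lost with the DESeq2 Wald test (adjusted p = 0.176) and with a robust prior in edgeR (0.105). ROSA-Cre exceeded PF4-Cre 12.8-fold between the wild-type libraries (interval 11.9 to 13.6) and 33.5-fold between the knockouts (29.7 to 38.0), a log2 difference of 4.34 (SE 0.33, adjusted p = 0.00214, edgeR).

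Prg3, the paralogue beside Prg2, showed the same order with fewer reads. The gene (ENSMUSG00000027072, chromosome 2 from 84988215 to 84993886, plus strand) had 141 counts (2.36 CPM) in the PF4-Cre wild-type, 18 (0.298 CPM) in the PF4-Cre knockout, 315 (12.8 CPM) in the ROSA-Cre wild-type and 248 (11.1 CPM) in its knockout. The PF4-Cre knockout stood far below the other three. Knockout was 7.93-fold lower in PF4-Cre (ratio 0.126, interval 0.0726 to 0.207), and the ROSA-Cre ratio of 0.865 had an interval that includes 1 (0.730 to 1.03). The genotype difference of -1.36 (SE 0.60) did not pass (adjusted p = 0.152, edgeR), while the excess in ROSA-Cre of 3.62 did (SE 0.62, adjusted p = 0.0129).

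Epx, the peroxidase of the eosinophil granule, had a course close to that of Prg2. The gene (ENSMUSG00000052234, chromosome 11 from 87864000 to 87875536, minus strand) had 259 counts (4.33 CPM) and 56 counts (0.926 CPM) in PF4-Cre, and 1234 counts (50.1 CPM) and 885 counts (39.5 CPM) in ROSA-Cre, wild-type first. Again the models did not overlap and the knockout was the lower in each. Knockout was 4.68-fold lower in PF4-Cre (ratio 0.214, interval 0.157 to 0.286) and 1.27-fold lower in ROSA-Cre (0.788, interval 0.722 to 0.860). The genotype difference of -1.13 (SE 0.39) did not pass (adjusted p = 0.0835, edgeR), and the difference between models of 4.37 did (SE 0.43, adjusted p = 0.0049).

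Ear1, a ribonuclease gene, was nearly unread in the PF4-Cre knockout. The gene (ENSMUSG00000072601, chromosome 14 from 43818765 to 43875517, minus strand) had 29 counts (0.485 CPM) and 2 counts (0.0331 CPM) in PF4-Cre, and 363 counts (14.8 CPM) and 234 counts (10.45 CPM) in ROSA-Cre. The lowest value is within what a count of 0 allows in that library. Knockout was 14.7-fold lower in PF4-Cre (ratio 0.0681, interval 0.00788 to 0.269) and 1.41-fold lower in ROSA-Cre (0.708, interval 0.599 to 0.837), a log2 difference of -1.24 (SE 0.57, adjusted p = 0.169, edgeR). It was higher in ROSA-Cre by 5.87 (SE 0.63, adjusted p = 0.00528). Prg3, Epx and Ear1 were called lower in knockout by the DESeq2 Wald test (adjusted p = 0.0426, 0.00506 and 0.0404) and by edgeR with no filter on low counts (0.0031, 0.000104 and 0.0113).

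The count of Ear1 is uncertain, because its family holds near-identical copies. Of the 664 distinct stretches of 50 bases in its transcripts, 57.4% also stood in other genes, among them Ear2 and Ear10. That share was 0 for Prg2, Prg3, Epx, Cpa3 and Fcer1a and at most 2.10% for the others. The exons of Ear1 also overlap those of the pseudogene Ear-ps9, which had 0, 0, 4 and 1 counts listed as PF4-Cre wild-type, its knockout, ROSA-Cre wild-type and its knockout. In that order Ear6 had 82, 11, 474 and 345 counts and Ear2 had 49, 43, 445 and 336. Both relatives were higher in ROSA-Cre, Ear6 by 4.81 (SE 0.57, adjusted p = 0.0058, edgeR) and Ear2 by 4.43 (SE 0.28, adjusted p = 0.00082), and neither was called between genotypes.

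RefSeq promoter windows on GRCm38.p6, from 250 bases before to 50 after a gene's start, were found for 9 of the 10 genes, with a second window for Il1rl1. The bases before the start are shown for Prg3 and Epx, which were lower together in PF4-Cre, 5′ to 3′ on the gene's own strand. Capitals mark the hexamer AGATAA, or the related hexamer TGATAA, on either strand, letters that GATA factors prefer. The stretches stand at chr2:84987965-84988214 (plus strand) and chr11:87875537-87875786 (minus strand).
Prg3: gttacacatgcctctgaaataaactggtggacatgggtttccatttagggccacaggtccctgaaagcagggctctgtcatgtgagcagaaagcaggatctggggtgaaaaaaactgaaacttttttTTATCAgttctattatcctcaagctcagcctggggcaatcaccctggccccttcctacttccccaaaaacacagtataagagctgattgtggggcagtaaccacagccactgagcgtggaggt
Epx: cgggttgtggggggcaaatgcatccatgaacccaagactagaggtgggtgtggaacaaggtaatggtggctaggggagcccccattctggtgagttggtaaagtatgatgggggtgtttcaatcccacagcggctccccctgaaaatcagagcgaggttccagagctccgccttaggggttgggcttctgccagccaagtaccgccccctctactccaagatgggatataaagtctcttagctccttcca
Prg3 held TGATAA on the opposite strand, 123 bases before the start, and Epx held neither hexamer. Over all 10 windows, 7 held at least 1 of these hexamers, against 18.6% of 32851 windows of that length. AAATC on either strand, letters found in the site of GFI1 proteins, was in 6 of the 10 windows and in 35.9% of all windows. No match overlapped another, and a match describes letters only.

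Siglecf fell, with the knockout library the lower in each model. The gene (ENSMUSG00000039013, chromosome 7 from 43351341 to 43359531, plus strand) had 314 counts (5.25 CPM) and 77 counts (1.27 CPM) in PF4-Cre, and 148 counts (6.01 CPM) and 53 counts (2.37 CPM) in ROSA-Cre, wild-type first. Both wild-type libraries lay above both knockouts. Knockout was 4.13-fold lower in PF4-Cre (ratio 0.242, interval 0.186 to 0.312) and 2.54-fold lower in ROSA-Cre (0.394, interval 0.282 to 0.542). The log2 fold change was -1.70 (SE 0.35, adjusted p = 0.0185, edgeR). Between the models Siglecf differed by 0.52 (SE 0.34), which did not pass (adjusted p = 0.321).

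Other genes used as eosinophil markers had no common course between genotypes. Of 12, 9 were tested, 2 rose and 0 fell in knockout, with a median log2 fold change of -0.26. In ROSA-Cre 3 were higher (Ear2, Ear6 and Alox15) and 1 was lower (Tgm2), against 7.36% and 9.67% of all genes. The risers in knockout were S100a10 (0.49, SE 0.13, adjusted p = 0.0396, edgeR), a calcium-binding protein, and the transglutaminase Tgm2 (0.91, SE 0.14, adjusted p = 0.00765), both made by many other cells. Alox15, a lipoxygenase of eosinophils, had 28 and 34 counts in PF4-Cre against 510 and 306 in ROSA-Cre, where it was higher by 5.02 (SE 0.34, adjusted p = 0.0012, edgeR). Il5ra, the receptor chain for the eosinophil growth factor interleukin-5, had 9, 0, 12 and 7 counts (0.151, 0, 0.488 and 0.313 CPM). Ccr3, the eotaxin receptor, had 121, 157, 89 and 42 counts (2.02, 2.60, 3.62 and 1.88 CPM). The order is PF4-Cre wild-type, its knockout, ROSA-Cre wild-type and its knockout. Neither was called between genotypes or models.

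Hdc, the enzyme that makes histamine, fell, with similar ratios in both models. The gene (ENSMUSG00000027360, chromosome 2 from 126593667 to 126619299, minus strand) had 1949 counts (32.6 CPM) and 733 counts (12.1 CPM) in PF4-Cre, and 478 counts (19.4 CPM) and 173 counts (7.73 CPM) in ROSA-Cre, wild-type first. Both knockouts lay below both wild-type libraries. Knockout was 2.69-fold lower in PF4-Cre (ratio 0.372, interval 0.341 to 0.405) and 2.51-fold lower in ROSA-Cre (0.398, interval 0.332 to 0.474), which gave -1.38 as log2 fold change (SE 0.18, adjusted p = 0.00449, edgeR). Hdc was also lower in ROSA-Cre than in PF4-Cre (-0.70, SE 0.18, adjusted p = 0.04).

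The rest of the amine and granule machinery did not follow Hdc. Of 18 genes that load, break down or sense granule amines, build the heparin proteoglycan or have other granule roles, 13 were tested. Of these, 2 rose and 1 fell, with a median of -0.0014. Slc18a2, the pump that moves histamine and serotonin into granules, had 8218 and 27735 counts in PF4-Cre and 1598 and 6491 in ROSA-Cre, and rose by 1.95 (SE 0.15, adjusted p = 0.000567, edgeR). The heparan sulphate enzyme Ndst1 rose by 0.91 (SE 0.24, adjusted p = 0.0391), and Rab27a, a GTPase of granule transport, fell by 0.46 (SE 0.12, adjusted p = 0.0394). The histamine-degrading enzyme Hnmt, at 0.65 (SE 0.24), did not pass (adjusted p = 0.102), nor did Rab27b (SE 0.13, adjusted p = 0.996), another such GTPase and the gene of the list with the highest mean CPM.

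Cpa3 separated the Cre models rather than the genotypes. The gene (ENSMUSG00000001865, chromosome 3 from 20215620 to 20242181, minus strand) had 1748 counts (29.2 CPM) and 2387 counts (39.5 CPM) in PF4-Cre, and 121 counts (4.92 CPM) and 158 counts (7.06 CPM) in ROSA-Cre, wild-type first. Both PF4-Cre libraries lay above both ROSA-Cre libraries, and the knockout was the higher in each model. Ratios were 1.35 (interval 1.27 to 1.44) and 1.44 (1.13 to 1.83), and the genotype difference of 0.47 (SE 0.18) did not pass (adjusted p = 0.1, edgeR). ROSA-Cre was 5.95-fold lower than PF4-Cre between the wild-type libraries and 5.59-fold lower between the knockouts (log2 difference -2.53, SE 0.18, adjusted p = 0.00174, edgeR), opposite in direction to the eosinophil granule genes.

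Fcer1a, the IgE-binding chain, rose in knockout. The gene (ENSMUSG00000005339, chromosome 1 from 173221284 to 173227214, minus strand) had 255 counts (4.27 CPM) and 869 counts (14.4 CPM) in PF4-Cre, and 74 counts (3.01 CPM) and 101 counts (4.51 CPM) in ROSA-Cre, wild-type first. The PF4-Cre knockout stood well above the other three, and both knockouts lay above both wild-type libraries. The ROSA-Cre knockout and the PF4-Cre wild-type were not apart, with overlapping counting intervals (3.68 to 5.49 and 3.77 to 4.83 CPM per kb of exon). Ratios were 3.37 (interval 2.93 to 3.89) for PF4-Cre and 1.5 (1.10 to 2.05) for ROSA-Cre, and the log2 fold change of 1.21 (SE 0.35) passed narrowly (adjusted p = 0.0488, edgeR).

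Ms4a2, the beta chain of the same receptor, was nearly level. The gene (ENSMUSG00000024680, chromosome 19 from 11615523 to 11623719, minus strand) had 560 counts (9.37 CPM) and 569 counts (9.41 CPM) in PF4-Cre, and 149 counts (6.05 CPM) and 153 counts (6.83 CPM) in ROSA-Cre. The genotypes were interleaved. Ratios were 1.0 (interval 0.892 to 1.13) and 1.13 (0.895 to 1.42), and neither the genotype difference of 0.09 (SE 0.24, adjusted p = 0.835, edgeR) nor the model difference of -0.55 (SE 0.24, adjusted p = 0.16) passed.

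The bases before the starts of Fcer1a and Ms4a2 are shown because these are chains of 1 receptor and the test called only Fcer1a; the difference between them was not tested. They stand at chr1:173227230-173227479 and chr19:11623720-11623969, both on the minus strand, with the same hexamers in capitals.
Fcer1a: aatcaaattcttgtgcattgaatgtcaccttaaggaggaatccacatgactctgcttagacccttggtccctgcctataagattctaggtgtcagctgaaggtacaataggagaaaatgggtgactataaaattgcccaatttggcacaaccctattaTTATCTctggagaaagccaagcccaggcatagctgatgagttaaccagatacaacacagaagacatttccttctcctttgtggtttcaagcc
Ms4a2: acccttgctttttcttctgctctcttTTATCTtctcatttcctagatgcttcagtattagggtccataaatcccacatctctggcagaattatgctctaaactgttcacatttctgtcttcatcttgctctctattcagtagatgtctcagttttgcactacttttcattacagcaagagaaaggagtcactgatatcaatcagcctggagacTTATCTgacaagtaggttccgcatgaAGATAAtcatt
Fcer1a held AGATAA once, on the opposite strand 92 bases before the start. Ms4a2 held it at 3 places, on the opposite strand 224 and 37 bases and on its own strand 11 bases before the start.

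Of 17 signalling genes of the IgE receptor, all tested, 3 rose and 2 fell in knockout, with a median log2 fold change of 0.13. Fcer1g, the gamma chain that the platelet collagen receptor also uses, had 646 and 1930 counts in PF4-Cre and 310 and 756 in ROSA-Cre, and rose by 1.49 (SE 0.17, adjusted p = 0.00252, edgeR). The adaptor Lat2 rose by 0.85 (SE 0.13, adjusted p = 0.00812) and the kinase Fyn by 0.62 (SE 0.12, adjusted p = 0.0176). The adaptors Lat and Grb2 fell by 1.22 (SE 0.20, adjusted p = 0.00933) and by 0.53 (SE 0.15, adjusted p = 0.0434). Syk, the kinase that binds the gamma chain and the gene of the list with the highest mean CPM, had a difference of 0.27 (SE 0.14) that did not pass (adjusted p = 0.2).

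Il1rl1, the interleukin-33 receptor gene, was the only one of the 10 whose ratios stood on opposite sides of 1. The gene (ENSMUSG00000026069, chromosome 1 from 40429570 to 40465415, plus strand) had 232 counts (3.88 CPM) and 630 counts (10.4 CPM) in PF4-Cre, and 82 counts (3.33 CPM) and 56 counts (2.50 CPM) in ROSA-Cre, wild-type first. The PF4-Cre knockout stood above the other 3 libraries. Ratios were 2.68 (interval 2.30 to 3.13) and 0.751 (0.525 to 1.07), the latter interval including 1, and the log2 fold change of 0.58 (SE 0.46) did not pass (adjusted p = 0.406, edgeR). A gene count sums the membrane receptor and its soluble form.

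Of 15 genes of the interleukin-33 pathway, 14 were tested, 1 rose and 0 fell, with a median of -0.01. The riser was Nfkbia, an inhibitor of NF-kappaB (1.13, SE 0.18, adjusted p = 0.00859, edgeR). Il1rap, the second chain of the receptor, did not pass, at -0.02 on the log2 scale (SE 0.15, adjusted p = 0.959). Il33 itself had 1 count in the PF4-Cre wild-type and 0 in the other libraries.

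**Figure D2:**
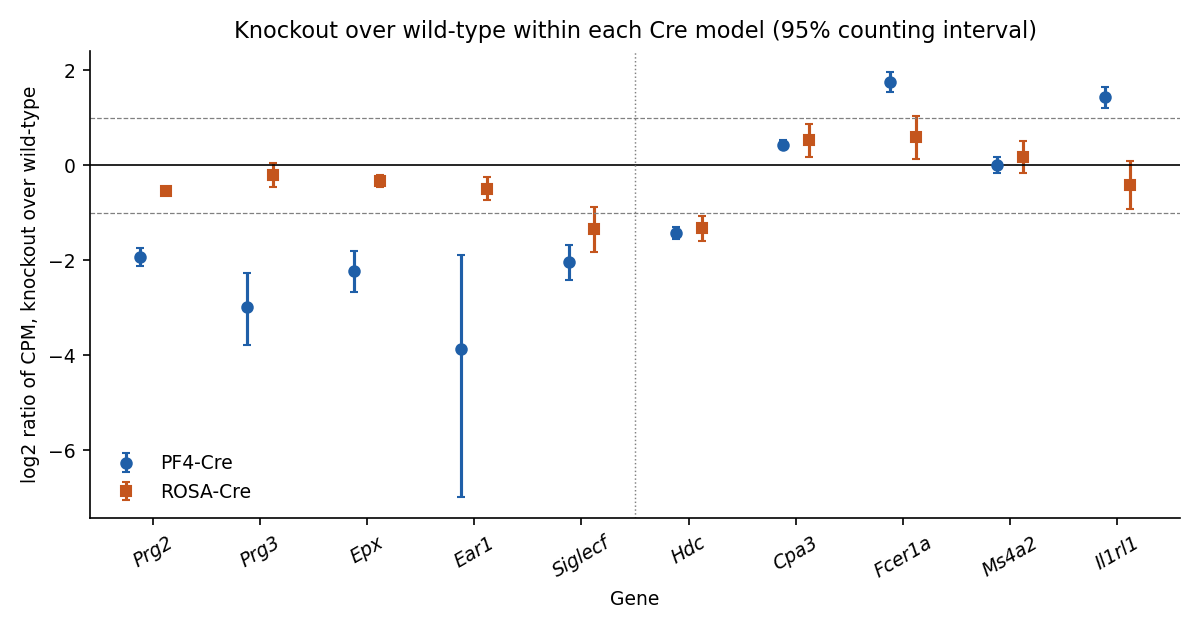
Knockout over wild-type ratio of the 10 genes within PF4-Cre and within ROSA-Cre on a log2 axis, with 95% Clopper-Pearson counting intervals. The PF4-Cre points of Prg2, Prg3, Epx and Ear1 (0.262, 0.126, 0.214 and 0.0681) lie below their ROSA-Cre points, while those of Hdc (0.372 and 0.398) and Cpa3 (1.35 and 1.44) nearly coincide.

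Ratios between 2 genes in the same library showed which of them kept step. Prg2 had 4.13, 5.05, 4.55 and 3.97 reads for each read of Epx, listed as PF4-Cre wild-type, its knockout, ROSA-Cre wild-type and its knockout. Prg2 itself ran from 4.68 to 228 CPM. The intervals of the ROSA-Cre wild-type (4.28 to 4.84) and its knockout (3.68 to 4.27) did not overlap for this ratio. Prg2 over Prg3 was 7.58 in the PF4-Cre wild-type (interval 6.36 to 9.10), below the 15.7, 17.8 and 14.2 of the other three. Prg2 over Ear1 was 36.9 and 141.5 in PF4-Cre and 15.5 and 15.0 in ROSA-Cre, the value of 141.5 resting on 2 reads of Ear1 (interval 38.8 to 1174).

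Siglecf kept step with Prg2 between the genotypes of PF4-Cre but not between the models. Prg2 had 3.40 (interval 2.999 to 3.87) and 3.68 (2.85 to 4.79) reads for each read of Siglecf in PF4-Cre, wild-type first, and 37.9 and 66.2 in ROSA-Cre. In PF4-Cre, Fcer1a over Ms4a2 was 0.455 (interval 0.391 to 0.529) in the wild-type library and 1.53 (1.37 to 1.70) in the knockout. The ROSA-Cre pair had 0.497 (0.371 to 0.661) and 0.660 (0.508 to 0.854). The PF4-Cre knockout lay above the other three, and the ROSA-Cre intervals overlapped. These are ratios of reads, not of levels, since the exons of Fcer1a span 998 bases and those of Ms4a2 2813, and per kilobase Fcer1a was the higher in all 4 libraries. Hdc over Cpa3 was 1.11 and 0.307 in PF4-Cre and 3.95 and 1.09 in ROSA-Cre, lower in knockout in both.

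**Figure D3:**
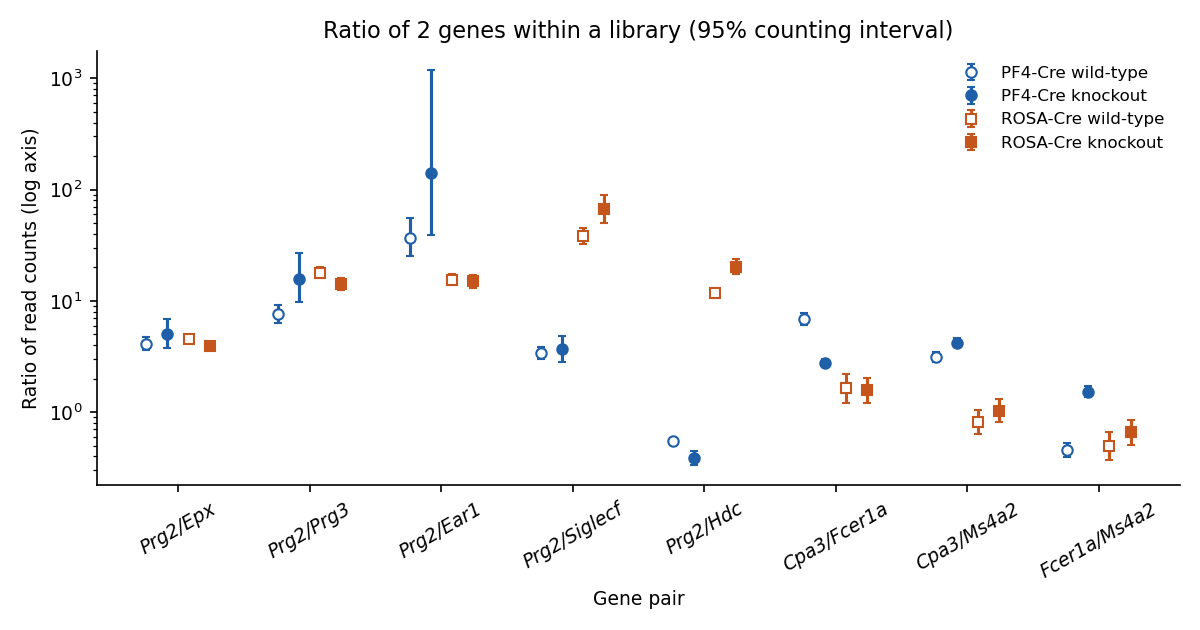
Ratio of the read counts of 2 genes within each library, on a log axis with 95% Clopper-Pearson counting intervals. The 4 points of Prg2/Epx lie between 3.97 and 5.05, whereas those of Prg2/Siglecf run from 3.40 in the PF4-Cre wild-type to 66.2 in the ROSA-Cre knockout.

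Basophil proteases were present in all libraries. Of 12 other basophil genes, 11 were found and 9 tested, 1 rose and 0 fell in knockout, with a median of 0.19. The riser was the cytokine Il6 (2.85, SE 0.50, adjusted p = 0.0118, edgeR), with 22, 152, 3 and 23 counts. Prss34, a basophil protease and the gene of the list with the highest mean CPM, had 707 and 959 counts in PF4-Cre and 1260 and 1549 in ROSA-Cre, and its difference of 0.43 (SE 0.14) did not pass (adjusted p = 0.0704). Mcpt8, a protease that defines basophils, had 516, 442, 456 and 482 counts. Of the 9 tested, 2 were higher in ROSA-Cre and 1 was lower, against 7.36% and 9.67% of all genes. Prss34 was higher there by 2.12 (SE 0.14, adjusted p = 0.00131, edgeR) and Mcpt8 by 1.33 (SE 0.22, adjusted p = 0.0111). The chemokine gene Ccl3 was lower by 1.76 (SE 0.49, adjusted p = 0.0489).

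Proteases of mature mast cells were near 0. Of 18 other mast cell genes, 5 had enough counts to test, 2 rose and 0 fell, with a median of 0.65, and 7, 10, 13 and 12 of the 18 had 0 counts. The chymases and tryptases Mcpt1, Mcpt2, Mcpt4, Mcpt9, Cma1, Cma2, Tpsb2, Tpsab1 and Tpsg1, summed after their values were seen, had 18, 16, 1 and 4 counts in all. Hpgds, a prostaglandin D2 synthase, rose by 2.29 (SE 0.25, adjusted p = 0.00236, edgeR). Gzmb, a granzyme also made by lymphocytes, had 18 and 111 counts in PF4-Cre and 0 and 10 in ROSA-Cre, and rose by 2.98 (SE 0.70, adjusted p = 0.0285). Kit, the receptor of the sort gate, had 14612, 12228, 5797 and 7402 counts (244, 202, 236 and 331 CPM). Its knockout over wild-type ratio was 0.827 in PF4-Cre and 1.40 in ROSA-Cre, and it was not called (0.11, SE 0.19, adjusted p = 0.731, edgeR).

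Some cytokine signalling genes known from these cell types rose in the sorted megakaryocytes. Of 14 genes of interleukin-3, interleukin-5 and GM-CSF signalling, all tested, 6 rose and 0 fell in knockout, with a median of 0.35. Among all genes tested, 11.6% were called higher and 8.72% lower. The shared beta chain Csf2rb rose by 1.42 (SE 0.17, adjusted p = 0.00314, edgeR). Its paralogue Csf2rb2 had 38 and 1427 counts in PF4-Cre and 30 and 914 in ROSA-Cre (5.14, SE 0.23, adjusted p = 0.000128), and the split of reads between these similar genes is uncertain. The feedback inhibitor Socs2 rose by 2.18 (SE 0.38, adjusted p = 0.0118) and the kinase Pim1 by 0.65 (SE 0.16, adjusted p = 0.0315). Among 11 lipid mediator genes, 10 tested, 1 rose, Hpgds, and 2 fell, the leukotriene genes Alox5ap (-0.98, SE 0.18, adjusted p = 0.0126) and Lta4h (-0.60, SE 0.12, adjusted p = 0.0178), with a median of -0.17.

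Of 21 transcription factors of these lineages, all tested, 2 rose and 5 fell, with a median of -0.40. Gata2, a factor of mast cells and basophils, rose by 1.44 (SE 0.21, adjusted p = 0.00687, edgeR), and Ikzf2 by 1.32 (SE 0.16, adjusted p = 0.0033). Cebpe, which eosinophils and neutrophils need for their granules, had 461 and 128 counts in PF4-Cre and 256 and 89 in ROSA-Cre, and fell by 1.63 (SE 0.29, adjusted p = 0.0118). Runx3 fell by 0.86 (SE 0.14, adjusted p = 0.00913). The other three that fell, named after their values were seen, were Gata1, Irf8 and Xbp1.

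Early neutrophil granule genes, another granule program of the marrow, also fell. Of 10, 9 were found and tested, 7 fell and 0 rose, with median log2 ratios of -1.5 within PF4-Cre and -1.91 within ROSA-Cre. The 5 eosinophil genes had medians of -2.21 and -0.50 there. Mpo, a peroxidase related to Epx, had 41584 and 11790 counts in PF4-Cre and 17505 and 4017 in ROSA-Cre (-1.91, SE 0.13, adjusted p = 0.000371, edgeR). Ctsg fell by 1.98 (SE 0.13, adjusted p = 0.00032). Whether the eosinophil genes differed between models from the neutrophil genes was not tested, since each group holds 1 library.

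Markers of other cells moved with the groups too. Listed as PF4-Cre wild-type, its knockout, ROSA-Cre wild-type and its knockout, early neutrophil genes summed to 2783, 1404, 2934 and 981 CPM. In that order late neutrophil genes, with 0 of 11 called over both models, summed to 740.1, 877, 735 and 211 CPM. Of these, 11 were at least 2-fold lower in knockout within ROSA-Cre and 0 within PF4-Cre, against 7.85% and 3.84% of all genes. Monocyte markers summed to 620.4, 596, 641 and 368 CPM, with 4 of 10 lower in knockout and 0 higher. Red cell markers summed to 55.1, 206, 118 and 331 CPM, with 4 of 10 higher and 3 lower, and lymphocyte markers to 32.8, 25.1, 29.0 and 23.8 CPM, with 0 of 6 tested called. Megakaryocyte markers had 3 of 12 higher and 3 lower. The 5 eosinophil genes summed to 30.3, 7.21, 312 and 220.2 CPM, and the other 5 members to 79.4, 85.8, 36.7 and 28.6 CPM. The part of these other markers in the results for the 10 genes was not tested.

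**Figure D4:**
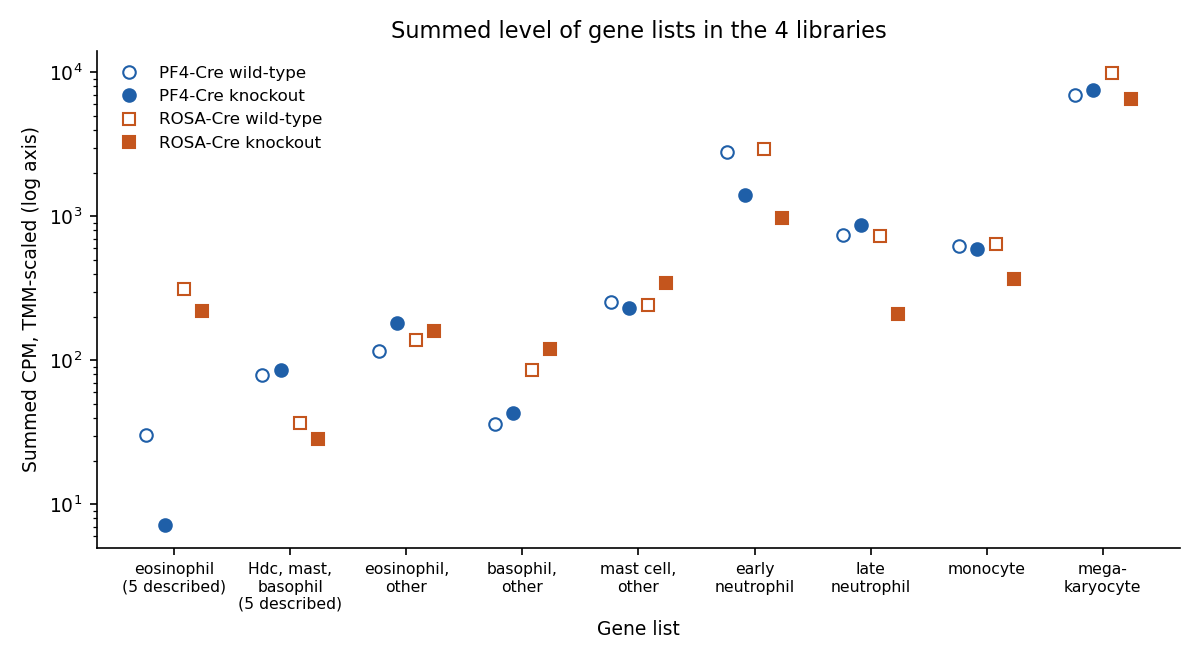
Summed CPM of gene lists in each library on a log axis, 1 point per library. The 5 eosinophil genes run from 7.21 CPM in the PF4-Cre knockout to 312 CPM in the ROSA-Cre wild-type, while early neutrophil genes are lower in knockout in both models.

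Per kilobase of exon, the scale on which genes can be compared, Prg2 led the 10 in 3 libraries. Its level was 21.3 CPM per kb in the PF4-Cre wild-type, where Cpa3 at 19.3 had an overlapping interval, and 272 and 187 CPM per kb in the ROSA-Cre libraries. Cpa3 led the PF4-Cre knockout with 26.0 CPM per kb, followed by Fcer1a with 14.4 and Prg2 with 5.58. In ROSA-Cre the next after Prg2 were Ear1, Epx and Prg3, between 11.7 and 20.2 CPM per kb, with overlapping intervals for Ear1 and Epx in both libraries. Cpa3, Hdc and Fcer1a, at 3.24, 3.04 and 3.01 CPM per kb in the ROSA-Cre wild-type, were not apart. Il1rl1 had the lowest value in 3 libraries, at 0.363 to 0.563 CPM per kb, though in the PF4-Cre wild-type its interval overlapped that of Ear1, at 0.665. Ear1 was last in the PF4-Cre knockout, at 0.0453.

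The genes most like each member were found by the distance between log2 CPM profiles over the 4 libraries, each centred on its own mean, among genes whose mean reached 1 CPM. With 4 points that share model and depth, likeness is a description only. Outside the 10, the nearest to Epx and Ear1 was Ear6, at distances of 0.684 and 1.22, and the nearest to Prg2 and Prg3 was Gm26566, at 0.593 and 1.24. Prg2 and Epx were closer to each other, at 0.252. Siglecf was nearest to Cebpe (0.179), then Nav2 (0.226), and Hdc to Btnl9 (0.127), then Plac8 (0.229). Cpa3 was nearest to the immediate early genes Jun (0.222), Dusp1 (0.238) and Fosb (0.332). Fcer1a lay nearest to Jam3 (0.173), Ms4a2 to Hypk (0.00321) and Il1rl1 to Stab2 (0.202).

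**Figure D5:**
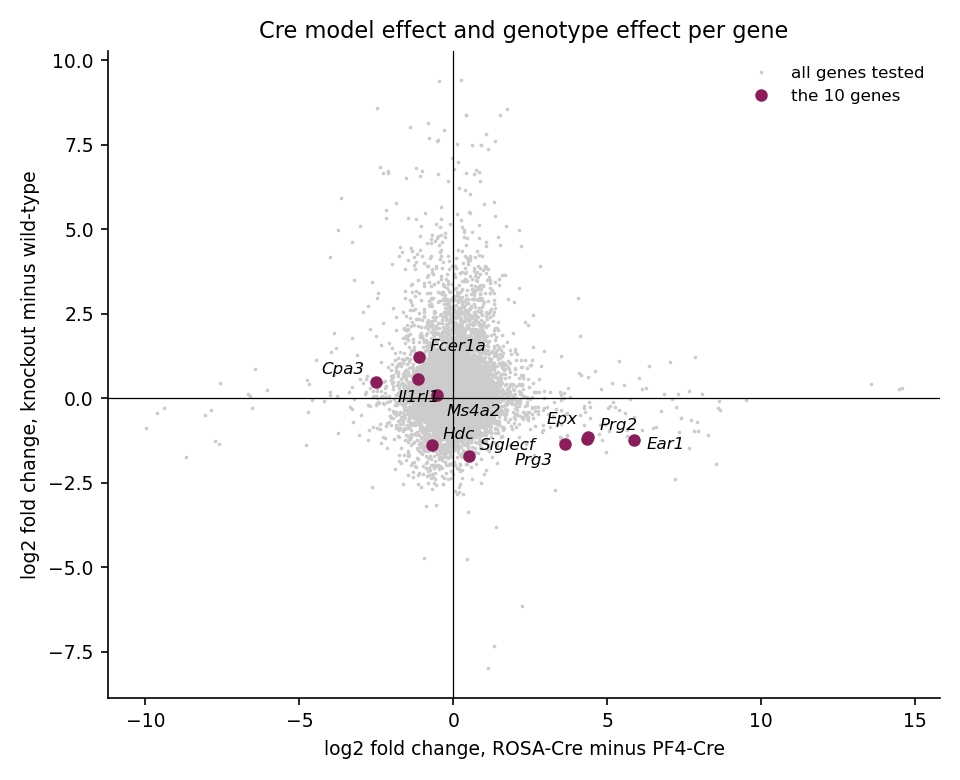
Log2 fold change between genotypes (vertical) against that between Cre models (horizontal) for the 15063 genes tested and the 10 genes, which are named. Prg2, Prg3, Epx and Ear1 lie at 3.62 to 5.87 on the horizontal axis, and Cpa3 lies at -2.53.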

How the data were processed

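The authors deposited raw HTSeq read counts per Ensembl gene, 1 table per library. Per the labels' protocols, a stranded mRNA library kit (TruSeq) was used. Per the submitters' processing notes, TopHat2 2.0.10, SAMtools, HTSeq and DESeq were used with mm10 and GRCm38. For the counting, annotation release and strand setting are not given in the sources. Groups came from the sample titles. Reads with no gene (32.1% to 36.2%) and other HTSeq categories stayed out of library sizes. Coordinates are from GENCODE M21 (GRCm38).

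The counts were tested in R 4.3.3 with edgeR 4.0.16: TMM, filterByExpr by genotype (minimum count 10), terms for Cre model and genotype, and Benjamini-Hochberg adjustment at 0.05. This left 1 residual and 6.13 prior degrees of freedom per gene. The SE is the absolute log2 change divided by the root of F. Within models, log2 ratios used a pseudocount of 1, and the 2-fold rule took genes with at least 10 counts in 1 of the libraries. Intervals cover counting error only, as reads lacking molecular identifiers may repeat molecules. Alternatives included DESeq2 1.42.0. The scripts were tested on simulated data.

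Members and gene lists were chosen with earlier results of these data known. From each of 15 lists the rule named up to 4 genes by smallest p-value and the one with the highest mean CPM, and for likeness the 3 nearest genes. Grb2, Alox15, Ccr3, Ear2, Ear10, Mcpt8, Ccl3, Il1rap, Il33 and the mast cell proteases were named after their values were seen. Hpgds, Il3ra, Il5ra, Irf8 and Mitf stand in more than 1 list.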

Additional observations from a re-analysis of the deposited data

Results flagged for a closer look

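Il1rl1 was the only one of the 10 genes whose knockout and wild-type libraries moved in opposite directions in the Cre models. Its log2 ratio of knockout over wild-type was 1.42 in PF4-Cre, from 232 to 630 counts, and -0.408 in ROSA-Cre, from 82 to 56 counts. With 1 library per group the difference between the models was not tested, and the counting interval of the ROSA-Cre ratio includes 1 (0.525 to 1.07).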

How the results depend on the processing

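The Cre model term already sets knockout against wild-type within each model. No paired analysis was possible because the labels give no replicate numbers, beyond that term. Ear1 had 2 counts in the PF4-Cre knockout, so its ratio there has a wide interval. The count of members lower in knockout, 3, became 5 with the DESeq2 Wald test and 6 with no filter on low counts. The Wald test called 3003 of 15063 genes in all, 1675 of them higher in knockout. No filter gave 4380 of 21765, 2440 of them higher, and the main fit 3065 of 15063, 1752 of them higher. Without a Cre model term the count of members lower was 0, with 0 higher, and 120 genes of all were called in place of 3065. The fits that leave out a library also drop the other term, so the effects of these changes cannot be told apart. For genotype, each such fit set 1 library of a genotype against libraries of both models, so the model difference entered the genotype difference. Over those fits 0 to 3 members were called higher in knockout, 1 to 5 lower, and 585 to 975 genes in all, 700 without the PF4-Cre wild-type and 663 without the ROSA-Cre wild-type. The members called lower were 5 without the ROSA-Cre knockout and 1 without each of the others, and those called higher without the ROSA-Cre wild-type were 3, Prg2, Epx and Ear1. Between the Cre models, no filter gave 4 members lower in ROSA-Cre and 4033 genes in place of 2566. Without a genotype term edgeR called 0 members higher, 0 lower and 0 genes, with 4, 1 and 2050 at an unadjusted p under 0.05. Without each library it called 0 to 0 members in either direction and 0 to 6 genes.

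Over the fits without a library, the log2 genotype difference ran from -4.71 to 2.18 for Prg2, from -4.65 to 1.26 for Prg3, from -4.87 to 2.22 for Epx, from -7.72 to 3.42 for Ear1, from -1.28 to 2.26 for Cpa3, from -0.18 to 0.43 for Ms4a2 and from -0.53 to 1.53 for Il1rl1. Fcer1a ran from 0.30 (adjusted p = 0.861, without the PF4-Cre knockout) to 1.97 and Siglecf from -2.14 to -1.25, and both were called only without the ROSA-Cre knockout. Hdc ran from -1.75 to -0.96, called without the PF4-Cre knockout and without the ROSA-Cre wild-type. Without the PF4-Cre knockout the values were 0.354 for Prg2, 0.562 for Prg3, 0.546 for Epx and 0.477 for Ear1, and without the ROSA-Cre wild-type -0.282 for Cpa3 and -0.172 for Ms4a2. The model difference ran from -1.54 to 0.15 for Hdc and from -0.46 to 1.71 for Siglecf, which was at -0.329 without the PF4-Cre knockout. Of 109 alternative values for single members, 72 kept direction and call for genotype and 74 for Cre model. Reversals numbered 13 and 3, all of them in fits without a library, where models and genotypes were not balanced. Prg2, Epx and Ear1, at positive values without the ROSA-Cre wild-type, were lower in knockout within each model.

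Within PF4-Cre, 2400 genes passed the 2-fold limit, 4406 a 1.5-fold limit, 852 a 4-fold limit and 1433 with at least 50 counts, and at 4-fold 0 members were higher. Within ROSA-Cre the numbers were 3140, 5913, 1024 and 2043, and at 4-fold 0 members were lower. A planned older quasi-likelihood method proved to be the default of this edgeR version. The newer method, added after seeing the data, called 3348 genes between genotypes and 2824 between models, with 1 member higher and 3 lower, and 4 higher and 2 lower, as before. The cause of these changes was not tested.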
